A study of Homo sapiens with 32 samples.

Results

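The messenger RNA of 9 antioxidant genes, HMOX1, GCLM, GCLC, TXNRD1, SRXN1, NQO1, TXN, PRDX1 and OSGIN1, was followed in human granulosa cells exposed for weeks to perfluorooctane sulfonate (PFOS), a persistent fluorinated surfactant. The genes were chosen by name as targets of the transcription factor NRF2, with earlier results of these data known. Their counts, and those of the lists below, are therefore set against all genes as description only. All 9 were found among the 18583 genes with values, of 47137 gene entries. The cells were HGrC1, an established line of non-luteinized human granulosa cells, the cells that surround the oocyte and make estradiol from androgen. There were 8 groups of 4 libraries: vehicle control (0.05% DMSO) and 0.01, 0.1 and 1 µM PFOS, each after 6 and after 12 weeks, with PFOS given again at each passage. The 4 replicates were 4 vials of this 1 line, frozen on different dates, thawed separately and each split over the 4 treatments, so they carry the differences between vials and not between donors. All groups shared a medium with 10% serum and a steroid at 100 nM, which the sample labels name as estradiol and the study's methods as testosterone.

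NRF2, encoded by NFE2L2, is held in the cytoplasm by KEAP1, which hands it to a ubiquitin ligase for destruction. Oxidants and electrophiles modify cysteines of KEAP1, NRF2 then accumulates, pairs with a small MAF protein and binds antioxidant response elements (AREs) in its target genes, where BACH1 competes with it as a repressor. Its targets make and recycle glutathione and thioredoxin, reduce quinones and break down heme, and in follicles such enzymes are thought to guard granulosa cells against the oxidants that steroid synthesis gives off.

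Each library held 17907057 to 18553350 counts in all, and depth was nearly the same in all groups. Of the 11 granulosa cell markers examined, 10 had values, all but FSHR. The transcription factors GATA4 and WT1 were well expressed, at 111 to 156 and 55.3 to 79.1 CPM (counts scaled to the size of the library). FOXL2, which specifies granulosa cells, was low at 0.549 to 2.03 CPM, and the aromatase gene CYP19A1 reached at most 1 count in a library. INHBA and AMH had medians of 15 and 13.8 CPM. STAR, INHA, CYP11A1 and NR5A1 were low as well, with medians of 2.66, 1.1, 0.771 and 0.11 CPM. Summed counts of 6 liver transcripts were 0 to 1 in the 8 libraries of the control and of 0.01 µM PFOS at 6 weeks, 88 to 141 in the libraries of 0.1 and 1 µM at 6 weeks, and 72 to 174 at 12 weeks, apart from 919 in the third control library. These counts moved with 0.1 and 1 µM PFOS at 6 weeks, and with time in the control and at 0.01 µM; their part in the results below was not tested.

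The 9 genes lie on 7 chromosomes (build GRCh38.p14, coordinates as the count tables give them). GCLC (chr6:53497341-53545101, minus strand) and GCLM (chr1:93885199-93909430, minus strand) encode the catalytic and the modifier subunit of glutamate-cysteine ligase, the rate-limiting enzyme of glutathione synthesis. TXN (chr9:110243810-110256507, minus strand) encodes thioredoxin, TXNRD1 (chr12:104215779-104350307, plus strand) the reductase that regenerates it from NADPH, PRDX1 (chr1:45511051-45522890, minus strand) a peroxidase that thioredoxin reduces, and SRXN1 (chr20:646615-653200, minus strand) sulfiredoxin, which repairs overoxidized peroxiredoxins. NQO1 (chr16:69709401-69726560, minus strand) encodes a quinone reductase and HMOX1 (chr22:35381096-35394207, plus strand) the inducible heme oxygenase. OSGIN1 (chr16:83953240-83966332, plus strand) encodes a growth inhibitor induced by oxidative stress.

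Promoter windows of RefSeq (GRCh38.p14, from 250 bases before to 50 after a gene's start) were given for 7 of the 9 genes, with 8 windows because TXNRD1 has 2 starts. They were searched on both strands for the ARE core TGACNNNGC, for the AP-1 site TGANTCA, which can overlap longer forms of the ARE, and for the core of the xenobiotic response element, GCGTG. The matches to the first 2 motifs are shown with 10 bases on either side, because they set GCLM, TXNRD1 and OSGIN1 apart from the other windows. Capitals mark the motif, and each run is written 5′ to 3′ on the strand of the gene, so that an ARE on the opposite strand reads as its reverse complement:
GCLM, 34 to 26 bases before the start, chr1:93909446-93909474, minus strand: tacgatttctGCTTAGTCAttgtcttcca
TXNRD1, 99 to 91 bases before the upstream start, chr12:104215670-104215698, plus strand: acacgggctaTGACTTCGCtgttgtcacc
TXNRD1, 8 to 0 bases before the upstream start, chr12:104215761-104215789, plus strand: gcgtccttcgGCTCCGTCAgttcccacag
TXNRD1, 102 to 94 bases before the downstream start, chr12:104286920-104286948, plus strand: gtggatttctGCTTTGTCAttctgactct
OSGIN1, 97 to 91 bases before the start, chr16:83953133-83953159, plus strand: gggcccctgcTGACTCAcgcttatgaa

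An ARE core was thus present in the windows of GCLM and TXNRD1, and in 13.3% of the 35116 promoter windows of all genes. The OSGIN1 site reads as an AP-1 site on both strands and overlaps a match to GCGTG, and 7.71% of all windows held an AP-1 site. GCGTG was found in the windows of GCLM, GCLC, TXN, NQO1, OSGIN1 and SRXN1 and at the downstream start of TXNRD1, against 36.5% of all windows, with 6 matches in TXN. The windows of GCLC, SRXN1, NQO1 and TXN held neither an ARE core nor an AP-1 site, which says only that these letters are not within them.

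On the TPM scale, which divides counts by gene length and library size, the 4 genes of highest level belonged to the thioredoxin system and quinone reduction. PRDX1 had the highest median over the 32 libraries, 1049 TPM (range 910 to 1302), followed by TXNRD1 with 840 TPM (781 to 920). TXN had 488 TPM (414 to 605) and NQO1 286 TPM (214 to 404). The range of PRDX1 overlapped that of TXNRD1 and did not overlap that of TXN, and those of TXN and NQO1 did not overlap.

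The other 5 genes were expressed at a much lower level. SRXN1 had a median of 49.9 TPM (range 36.9 to 79.6), HMOX1 24.9 (17.8 to 29.6) and GCLM 14.9 (11.1 to 24.4). GCLC followed with 11.1 TPM (8.66 to 13.7) and OSGIN1 with 10.8 TPM (7.6 to 21.1). SRXN1 stood above the rest in every library, while the ranges of HMOX1, GCLM and OSGIN1 overlapped and GCLC did not reach those of HMOX1. Even the lowest count of a library, 153 for OSGIN1, lay far above the filter on low counts, so all 9 genes were tested in every comparison. By group mean, 8 of the 9 genes were highest in the control at 6 weeks, with TXNRD1 as the exception. HMOX1, GCLM, NQO1, TXN, PRDX1 and OSGIN1 were lowest at 0.1 µM PFOS after 12 weeks.

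**Figure D1:**
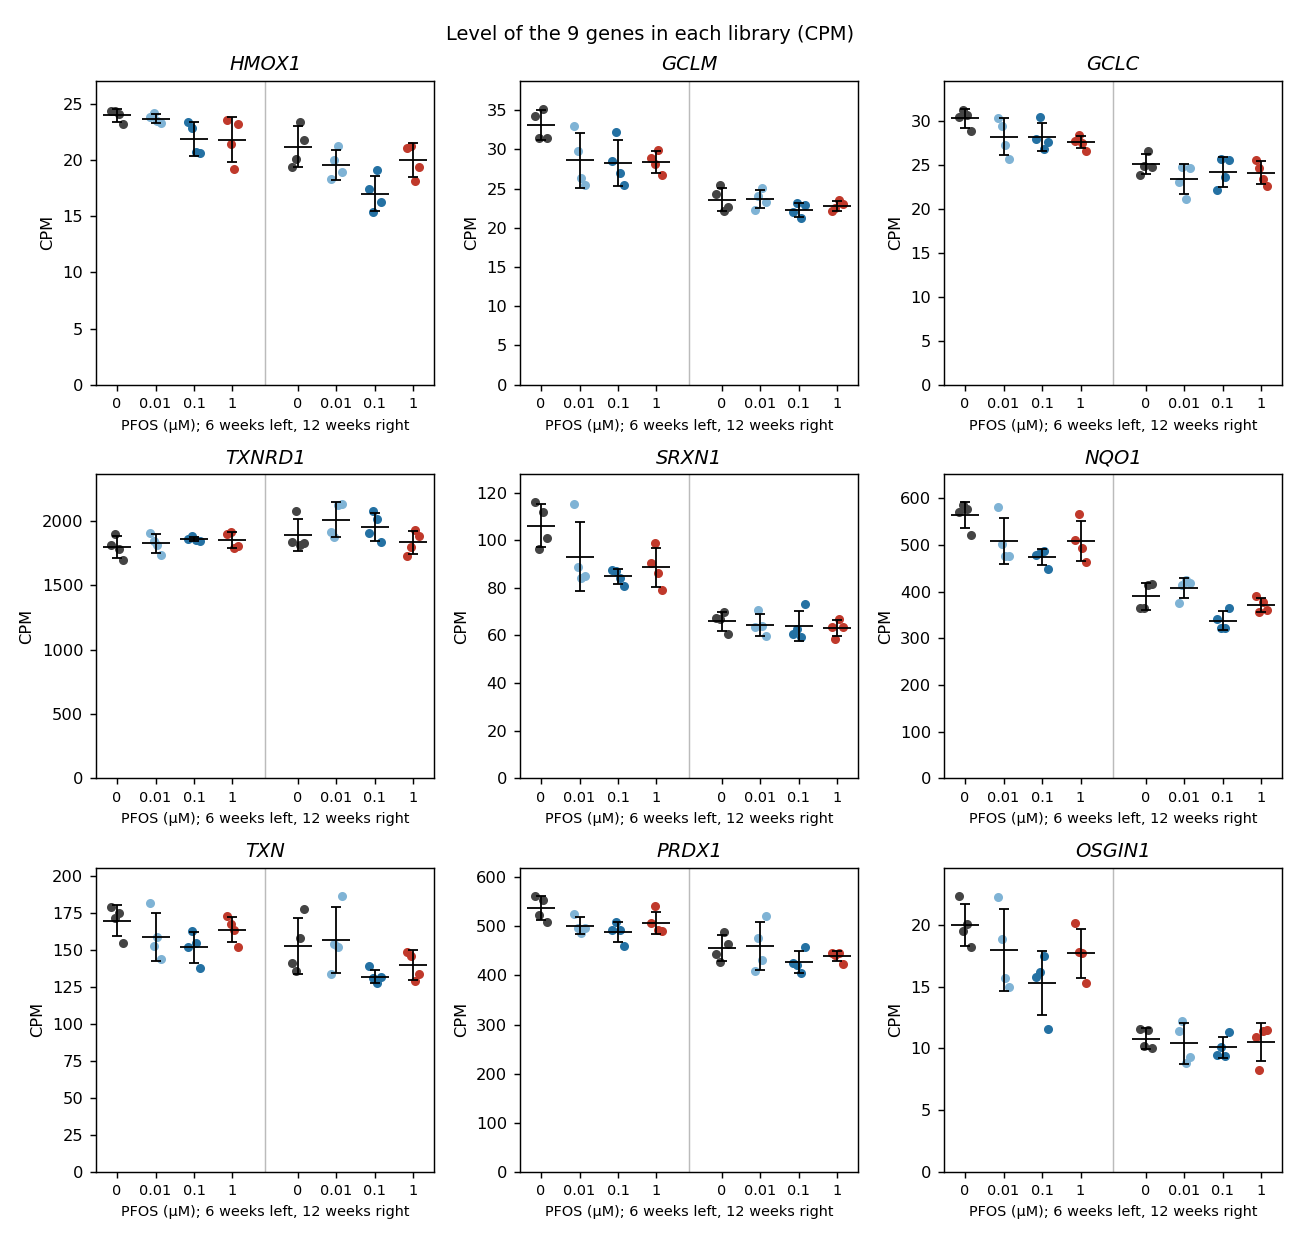
Level of each gene in CPM (linear axis from 0) in the 4 libraries of each group, with PFOS concentration on the horizontal axis, 6 weeks to the left and 12 weeks to the right of the line; points are libraries, horizontal marks with bars the mean ± SD. The control at 6 weeks is the highest group for every gene but TXNRD1, and the libraries of 12 weeks lie lower for NQO1, SRXN1 and OSGIN1 at every concentration.

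Which of these genes changed with PFOS was asked at each time by comparing each concentration with the control of the same time. At 6 weeks and 0.1 µM, NQO1 fell by 16.1% and PRDX1 fell by 9.31%, and the other 7 genes did not pass the test. Thus 2 of 9 genes passed (adjusted p at or under 0.05), against 4.24% of the 12836 genes tested, and none of them changed 2-fold. TXNRD1 was the only gene of the 9 with a higher mean than the control, and the median log2 fold change of the 9 was −0.16, against 0.0004 over all genes tested. Means were lower for 8 of the 9, against 49.9% of all genes. With the vial as a block in the model 6 of 9 genes passed, against 5.76% of all genes in that fit. In RNA of whole cultures, fewer cells that express a gene and less of its RNA per cell cannot be told apart.

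NQO1, the quinone reductase, was measured at 572, 585, 577 and 522 CPM in the 4 control vials at 6 weeks and at 478, 484, 487 and 448 CPM at 0.1 µM. Every exposed library lay below every control library, and the log2 fold change was −0.25 ± 0.07 (SE, n = 4; edgeR adjusted p = 0.0422). Leaving out any 1 of the 4 vials ended this call, with adjusted p between 0.064 and 0.213 by the same test on fewer libraries. The log2 fold change itself stayed between −0.26 and −0.25 under all alternative fits. PRDX1 had 563, 524, 554 and 509 CPM in the control and 492, 510, 492 and 460 CPM at 0.1 µM. The groups overlapped by a single exposed library, each exposed library was below the control of its own vial, and the log2 fold change was −0.14 ± 0.04 (SE, n = 4; edgeR adjusted p = 0.0429). The call was lost without vial 1, 3 or 4, with adjusted p of 0.173, 0.258 and 0.145. Its log2 fold change was −0.18 to −0.12 under all alternative fits.

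SRXN1 and OSGIN1 differed more in size but varied more between vials. SRXN1 stood at 116, 96.3, 112 and 101 CPM in the control and at 87.6, 87.1, 84 and 80.8 CPM at 0.1 µM, and the log2 fold change was −0.33 ± 0.10 (SE, n = 4; edgeR adjusted p = 0.0795, and 0.0346 with the vial as a block). OSGIN1 had 22.4, 19.5, 20.1 and 18.2 CPM in the control and 15.8, 16.2, 17.5 and 11.6 CPM at 0.1 µM, and the log2 fold change was −0.40 ± 0.14 (SE, n = 4; edgeR adjusted p = 0.109, and 0.00527 with the block). For both genes every exposed library was below every control library. With NQO1 these were the 3 genes of the 9 whose groups did not overlap at this concentration, against 6.31% of all genes tested whose exposed libraries all lay below the control libraries.

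Both subunits of glutamate-cysteine ligase had lower means at 0.1 µM without passing the test. The log2 fold change of GCLM was −0.23 ± 0.08 (SE, n = 4; edgeR adjusted p = 0.0843, and 0.0312 with the block), with 34.2, 31.4, 35.2 and 31.5 CPM in the control and 28.5, 32.2, 27 and 25.4 CPM at 0.1 µM. That of GCLC was −0.11 ± 0.05 (edgeR adjusted p = 0.26). The vial 2 library was the exception for GCLM, in which the exposed cells had the higher value. TXN was at −0.16 ± 0.07 (edgeR adjusted p = 0.174, and 0.0175 with the block) and HMOX1 at −0.14 ± 0.06 (adjusted p = 0.193). TXNRD1 was at 1814, 1900, 1784 and 1697 CPM in the control and at 1860, 1884, 1855 and 1846 CPM in the exposed cells. Its log2 fold change was 0.05 ± 0.04 (edgeR adjusted p = 0.505).

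At 0.01 and 1 µM after 6 weeks, 0 of the 9 genes passed, although 3 and 6 of them had an unadjusted p under 0.05 in the edgeR test, against 9.60% and 13.7% of all genes. DESeq2 called 0 of them at either concentration, with 4 left without an adjusted p at 1 µM. Of all genes, 0% passed at 0.01 µM (0 of 12836; 1232 with an unadjusted p under 0.05, 1 by DESeq2) and 0.280% at 1 µM. Again 8 of 9 means were lower than the control at each concentration, against 48.9% and 50.6% of all genes, but the 3 comparisons share their 4 control libraries, which had the highest group means. The log2 fold changes at 0.01, 0.1 and 1 µM were −0.15, −0.25 and −0.15 for NQO1, −0.19, −0.33 and −0.26 for SRXN1, and −0.21, −0.23 and −0.22 for GCLM. GCLM and GCLC were the 2 genes whose 1 µM libraries all lay below the control libraries, as in 3.61% of all genes tested. At 0.01 µM the library of vial 1 stood near or above its control, with 582 CPM for NQO1, 115 for SRXN1 and 182 for TXN, against 476 to 503, 84.2 to 88.6 and 144 to 159 CPM in the other 3 vials.

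**Figure D2:**
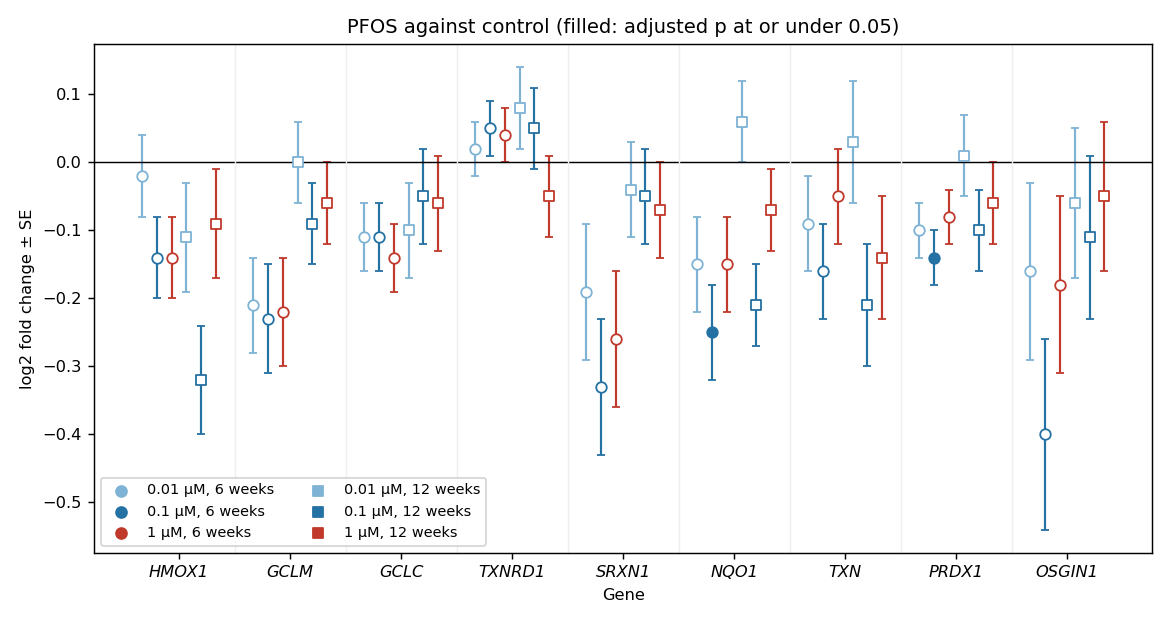
Log2 fold change against the control of the same time (vertical axis, ± SE) for each gene; circles are 6 weeks, squares 12 weeks, colors the PFOS concentration, and filled symbols passed the test. Only NQO1 and PRDX1 at 0.1 µM after 6 weeks are filled, and the lowest value is −0.40, of OSGIN1 at 0.1 µM after 6 weeks.

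At 12 weeks no gene of the 9 passed at any concentration. At 0.1 µM, 1.07% of the 12742 genes tested passed the edgeR test. Of the 9 genes 3 had an unadjusted p under 0.05, against 15.4% of all genes, and DESeq2 called 2, HMOX1 and NQO1, against 2.21% of the 12739 genes to which it gave an adjusted p. HMOX1, which releases iron and biliverdin from heme, had 19.4, 20.1, 23.4 and 21.8 CPM in the control and 17.4, 15.4, 19.1 and 16.3 CPM at 0.1 µM. All exposed libraries lay below the control ones, as in 3.86% of all genes, and the log2 fold change was −0.32 ± 0.08 (SE, n = 4; edgeR adjusted p = 0.0621, and 0.033 in DESeq2). NQO1 was at −0.21 ± 0.06 (edgeR adjusted p = 0.0847, and 0.0279 in DESeq2), with 366, 364, 414 and 417 CPM against 341, 322, 322 and 366 CPM. The 2 groups met at a single value for NQO1, and in each vial the exposed library was the lower. Without vial 1, HMOX1 and NQO1 passed the edgeR test with adjusted p of 0.0461 and 0.0481, as did 2.47% of all genes. Without vial 2, 3 or 4 their edgeR adjusted p was 0.194, 0.225 and 0.387 for HMOX1 and 0.186, 0.709 and 0.229 for NQO1. Without the third control library, which had 919 liver transcript counts, it was 0.297 for HMOX1 and 0.347 for NQO1.

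At 0.01 and 1 µM after 12 weeks, 0 of 9 genes passed in edgeR or in DESeq2, and 0 had an unadjusted p under 0.05. The log2 fold changes lay between −0.11 and 0.08 at 0.01 µM and between −0.14 and −0.05 at 1 µM. Of all genes, 0% passed at 0.01 µM (0 of 12742; 1080 with an unadjusted p under 0.05, 0 by DESeq2) and 0.220% at 1 µM. SRXN1 and OSGIN1 were at −0.05 and −0.11 at 0.1 µM, and their control libraries of 66 ± 3.97 and 10.8 ± 0.856 CPM (SD, n = 4) overlapped the exposed ones.

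In exact two-sided permutation tests of log2(CPM + 1), 4 libraries against 4, 6 of the 54 gene and concentration pairs reached the smallest p that the design allows, 0.0286. The lowest p after Benjamini-Hochberg adjustment over the 54 was 0.237.

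Neighbouring concentrations were compared to see at which step a level moved. From 0.01 to 0.1 µM and from 0.1 to 1 µM, 0 of 9 genes passed at either time, against 0.273% and 0.0857% of all genes at 6 weeks and 0% at both steps at 12 weeks. At an unadjusted p under 0.05 there were 0 and 0 of the 9 at 6 weeks and 3 and 2 at 12 weeks. Of all genes, 1490 and 802 of 12836 met this limit at 6 weeks, and 1891 and 984 of 12742 at 12 weeks. DESeq2 called 1 of the 9, NQO1 at the lower step at 12 weeks (adjusted p = 0.00427), where it called 145 of all genes. In edgeR this NQO1 step had a log2 fold change of −0.27 ± 0.06 (adjusted p = 0.116). Without vial 1 its edgeR adjusted p was 0.017, and without vial 2, 3 or 4 it was 0.365, 0.828 and 0.452. The step from 0.1 to 1 µM at 6 weeks gave OSGIN1 a log2 fold change of 0.22 ± 0.14 (edgeR adjusted p = 0.868).

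Whether PFOS acted differently after 12 weeks than after 6 was tested as the difference of the 2 effects over all 32 libraries. At 0.01, 0.1 and 1 µM, 0 of 9 genes passed, against 0%, 0.208% and 0.123% of the 12988 genes tested. At an unadjusted p under 0.05 there were 2, 1 and 0 of the 9, against 972, 1879 and 1571 of all genes. DESeq2 called none of the 9, with 4 lacking an adjusted p at 0.1 and at 1 µM. The difference at 0.1 µM was 0.28 ± 0.12 for SRXN1 (SE; edgeR adjusted p = 0.266) and 0.28 ± 0.18 for OSGIN1 (edgeR adjusted p = 0.486), and −0.18 ± 0.10 for HMOX1 (edgeR adjusted p = 0.423).

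The 2 times were then compared within each treatment. From 6 to 12 weeks in the control, 7 of 9 genes fell, against 36.6% of all genes that passed in either direction and 19.3% that fell. OSGIN1 fell by 45.9%, SRXN1 fell by 37.9%, NQO1 fell by 30.8% and GCLM fell by 28.5%. The smaller changes were those of GCLC, which fell by 17.3%, PRDX1, which fell by 15.2%, and HMOX1, which fell by 11.9%, while TXN and TXNRD1 did not pass. For 6 of the 9 the 12-week libraries all lay below the 6-week libraries, against 16.6% of all genes. Libraries of the 2 times differed in the number of passages and, in the control and at 0.01 µM, in liver transcript counts, and time cannot be told apart from anything else that separates the 2 sets.

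OSGIN1 dropped from 20 ± 1.73 to 10.8 ± 0.856 CPM in the control (SD, n = 4), a log2 fold change of −0.89 ± 0.13 (SE; edgeR adjusted p = 1.87e-06). SRXN1 went from 106 ± 9.04 to 66 ± 3.97 CPM (log2 fold change −0.69 ± 0.08, adjusted p = 2.14e-07). NQO1 went from 564 ± 28.2 to 390 ± 28.9 CPM (−0.53 ± 0.06, adjusted p = 2.47e-08). The libraries of each of these genes formed separate ranges at the 2 times, and each of these log2 fold changes was larger in size than those of the same gene in the 6 PFOS comparisons.

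In the glutathione branch, GCLM fell from 33.1 ± 1.95 to 23.6 ± 1.49 CPM (−0.48 ± 0.07, edgeR adjusted p = 1.17e-06) and GCLC from 30.3 ± 1.1 to 25.1 ± 1.13 CPM (−0.27 ± 0.06, adjusted p = 0.000474). In the thioredoxin branch the genes differed. PRDX1 fell from 538 ± 25 to 456 ± 26.7 CPM (−0.24 ± 0.05, edgeR adjusted p = 0.000776), TXN was at −0.15 ± 0.08 (adjusted p = 0.172), and TXNRD1 at 0.07 ± 0.05 (adjusted p = 0.27). HMOX1 passed narrowly (−0.18 ± 0.07, edgeR adjusted p = 0.0395), at a smaller size than its −0.32 with 0.1 µM PFOS at 12 weeks, and lost the call without vial 1, 2 or 4, with adjusted p of 0.236, 0.21 and 0.0636.

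In the exposed cultures 7 of 9 genes passed at each concentration. At 0.01 µM 6 fell and TXNRD1 rose (0.14 ± 0.05, edgeR adjusted p = 0.0272), and at 0.1 µM and at 1 µM 7 fell. Of all genes 42.7%, 40.3% and 30.1% passed at 0.01, 0.1 and 1 µM. GCLM, GCLC, SRXN1, NQO1 and OSGIN1 fell at all 4 concentrations, the control included, with log2 fold changes between −0.60 and −0.89 for OSGIN1, −0.41 and −0.69 for SRXN1, −0.32 and −0.53 for NQO1, −0.27 and −0.48 for GCLM, and −0.20 and −0.27 for GCLC. HMOX1 fell at all but 1 µM (−0.13 ± 0.07, edgeR adjusted p = 0.185) and PRDX1 at all but 0.01 µM (−0.12 ± 0.05, adjusted p = 0.0682).

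Some of these calls were lost when a vial was left out, which also leaves fewer libraries in each group. TXNRD1 at 0.01 µM was not called without vial 3 or 4 (edgeR adjusted p = 0.197 and 0.272), GCLM at 0.01 µM not without vial 1 (0.0947) and PRDX1 at 0.1 µM not without vial 2 or 3 (0.0581 and 0.0544). TXN fell only at 1 µM (−0.23 ± 0.09, edgeR adjusted p = 0.0386), with 0.0539 under the block and 0.107 and 0.248 without vial 2 or 3. GCLC at 1 µM was lost without vial 2 or 3 (edgeR adjusted p = 0.0534 and 0.0705). Under all alternative fits the log2 fold changes of these calls kept their sign. They were 0.08 to 0.19 for TXNRD1, −0.34 to −0.17 for GCLM and −0.26 to −0.16 for PRDX1. Those of TXN were −0.25 to −0.20 and those of GCLC −0.23 to −0.18. Liver transcript counts at 6 and 12 weeks were 89 to 141 and 95 to 155 at 0.1 µM, and 88 to 115 and 92 to 174 at 1 µM. The log2 fold changes of OSGIN1 over time were −0.60 and −0.75 at these 2 concentrations.

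**Figure D3:**
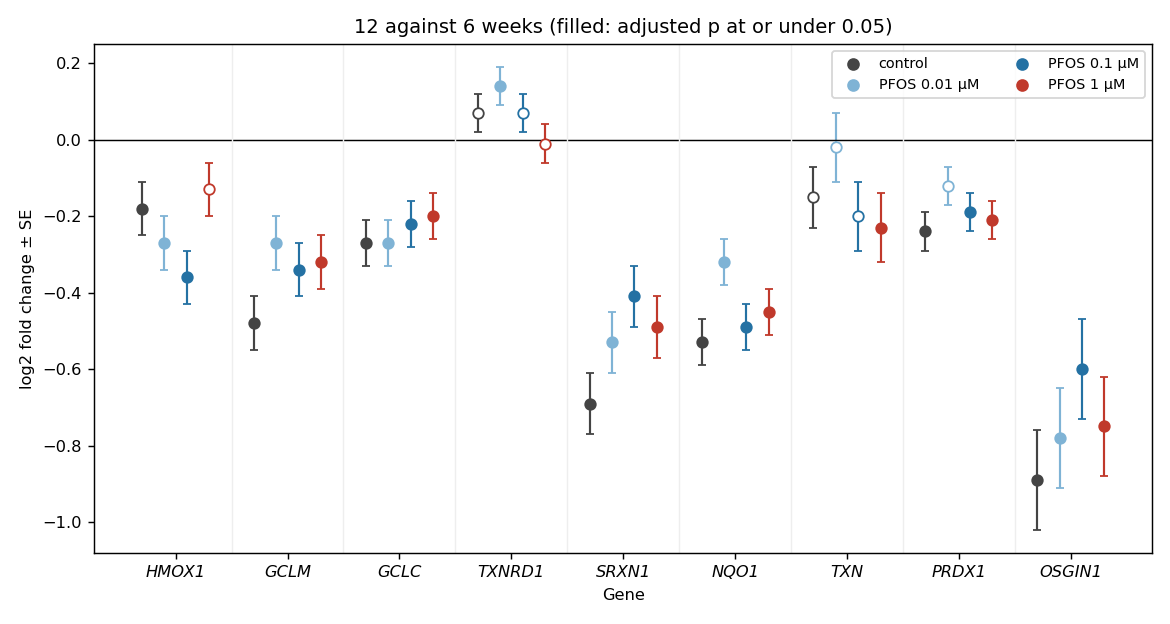
Log2 fold change from 6 to 12 weeks (vertical axis, ± SE) for each gene in the control and at each PFOS concentration; filled symbols passed the test. OSGIN1, SRXN1, NQO1, GCLM and GCLC are filled at all 4 concentrations, whereas TXNRD1 lies between −0.01 and 0.14.

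The regulators of NRF2 and its partners were examined as a list of 14 genes, all tested. With PFOS, 1 of 14 fell at 0.1 µM after 6 weeks and 1 at each of 0.1 and 1 µM after 12 weeks. Of all genes, 4.24%, 1.07% and 0.220% passed in these comparisons in either direction. In each case the gene was MAFF, a small MAF protein that partners NRF2 and is itself induced by stress. MAFF went from 119 ± 11 to 102 ± 5.74 CPM at 0.1 µM after 6 weeks (log2 fold change −0.23 ± 0.05, edgeR adjusted p = 0.0274). At 12 weeks it went from 155 ± 10.1 CPM to 105 ± 12.1 at 0.1 µM (−0.56 ± 0.07, adjusted p = 0.000778) and 91.3 ± 3.36 at 1 µM (−0.76 ± 0.07, adjusted p = 9.49e-06). These values at 12 weeks were larger in size than those of any of the 9 target genes.

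The other regulators named here did not pass with PFOS. The log2 fold changes of NFE2L2, the gene of NRF2, were 0.01, 0.02 and 0.04 at 6 weeks and 0.02, −0.09 and −0.18 at 12 weeks for 0.01, 0.1 and 1 µM, with edgeR adjusted p from 0.167 to 0.972. KEAP1 lay between −0.07 and 0.03, BACH1 between −0.11 and 0.04, MAFG between −0.20 and −0.06 and MAFK between 0.00 and 0.18. From 6 to 12 weeks in the control, 3 of the 14 rose and 3 fell, where 36.6% of all genes passed in either direction. NFE2L2 rose from 133 ± 5.73 to 154 ± 3.88 CPM (0.21 ± 0.04, edgeR adjusted p = 0.000253) while 7 of the 9 target genes fell, and MAFF rose by 0.38 ± 0.07 on the log2 scale (adjusted p = 4.57e-05). MAFG fell (−0.30 ± 0.06, edgeR adjusted p = 0.000204), as did SQSTM1 (−0.17 ± 0.05, adjusted p = 0.00607), an adaptor that takes KEAP1 to autophagy, and BACH1 (−0.14 ± 0.05, adjusted p = 0.0285). RBX1, part of the ligase, rose (0.22 ± 0.06). In the exposed cultures NFE2L2 changed over time by 0.22, 0.10 and −0.01 at 0.01, 0.1 and 1 µM (edgeR adjusted p = 8.69e-05, 0.0688 and 0.889). MAFF changed by 0.05, 0.05 and −0.26 (edgeR adjusted p = 0.567, 0.622 and 0.00443), while MAFG fell at each concentration (−0.31, −0.28 and −0.42).

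The rest of the antioxidant program was followed in lists chosen by function, also with earlier results of these data known. At 0.1 µM and 6 weeks, 4.24% of all genes passed. With 0.1 µM PFOS at 6 weeks, 1 of 20 tested other glutathione genes rose and 3 fell: GSTM2 (0.41 ± 0.10, edgeR adjusted p = 0.0281), SLC3A2, the heavy chain of the cystine transporter (−0.26 ± 0.04, adjusted p = 0.00174), GPX1 (−0.15 ± 0.04, adjusted p = 0.0332) and GSTM3 (−0.20 ± 0.05, adjusted p = 0.0451). Reads of the GSTM genes, close paralogs, may have been split uncertainly. Of 11 heme and iron genes 1 fell, ABCB6, a porphyrin transporter (−0.18 ± 0.04, edgeR adjusted p = 0.0159). Of 15 other thioredoxin and peroxiredoxin genes, 8 NADPH-producing enzymes, 17 genes of quinone, aldehyde and carbonyl detoxification, 5 export transporters and 7 other antioxidant enzymes, 0 passed with edgeR at any concentration or time. Over these 5 lists, 52 genes in 6 comparisons gave 56 of 312 values with an unadjusted p under 0.05, and DESeq2 called 4. Outside 0.1 µM at 6 weeks, 0 of 415 values of the 7 antioxidant lists passed in edgeR, with 63 at an unadjusted p under 0.05 and 3 called by DESeq2. Of all genes, 1232, 2665 and 1757 of 12836 had an unadjusted p under 0.05 at 6 weeks, for 0.01, 0.1 and 1 µM. At 12 weeks there were 1080, 1956 and 1115 of 12742. DESeq2 called 1, 624 and 129 of all genes at 6 weeks and 0, 282 and 89 at 12 weeks. Medians of the log2 fold change at 0.1 µM and 6 weeks were between −0.08 and −0.02 in these 7 lists.

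Genes of other stress programs changed with PFOS as well. Of all genes, 4.24% and 0.280% passed at 0.1 and 1 µM after 6 weeks, and 1.07% and 0.220% after 12 weeks. Of 14 other stress genes, 3 fell at 0.1 and 3 at 1 µM after 6 weeks: the chaperone genes HSPA1A, HSPA1B and DNAJB1, with log2 fold changes of −0.27 ± 0.03, −0.30 ± 0.03 and −0.33 ± 0.04 at 1 µM (edgeR adjusted p = 9.64e-06, 4.57e-06 and 4.57e-06). HSPA1A and HSPA1B are near-identical copies, and their separate values are uncertain. After 12 weeks HSPA1B (−0.36 ± 0.06, edgeR adjusted p = 0.0064) and ATF3 (−0.80 ± 0.09, adjusted p = 0.000778) fell at 0.1 µM, and ATF3 at 1 µM (−0.50 ± 0.09, adjusted p = 0.0308). Of the 4 tested targets of the aryl hydrocarbon receptor, which also acts on NQO1, CYP1B1 and TIPARP fell at 0.1 µM after 6 weeks and at 0.1 and 1 µM after 12 weeks. TIPARP was at −0.55 ± 0.07 and −0.88 ± 0.10 at 0.1 µM (edgeR adjusted p = 0.00174 and 0.000778) and CYP1B1 at −0.34 ± 0.07 and −0.67 ± 0.11 (adjusted p = 0.0159 and 0.0088). CYP1A1 also fell at 0.1 µM after 12 weeks, from 0.891 ± 0.404 to 0.193 ± 0.106 CPM (edgeR adjusted p = 0.0204). Of the 24 calls of list genes against the control in the 6 PFOS comparisons, 17 did not pass when 1 vial was left out, 4 of them without the first vial, 6 without the second, 16 without the third and 9 without the fourth, and their highest edgeR adjusted p without a vial was 0.0551 to 0.317. The 7 that passed without any 1 of the vials were HSPA1A, HSPA1B and DNAJB1 at 1 µM after 6 weeks, and ATF3 at 0.1 µM, MAFF at 1 µM and TIPARP at 0.1 and 1 µM after 12 weeks.

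Over time in the control, 36.6% of all 12988 genes tested passed, with 2511 lower and 2245 higher. The lists near the 9 genes differed in how many of their genes fell. Of 17 genes of quinone, aldehyde and carbonyl detoxification 12 fell and 1 rose, with a median log2 fold change of −0.62, the lowest of any list, against 0.0040 over all genes. AKR1B1, an aldose reductase, fell from 1202 ± 105 to 472 ± 83 CPM (−1.35 ± 0.09, edgeR adjusted p = 6.4e-12). EPHX1 (−0.68 ± 0.07, adjusted p = 1.84e-09), PTGR1 (−0.44 ± 0.05, adjusted p = 2.61e-08) and AKR1C3 (−1.56 ± 0.20, adjusted p = 1.22e-07) fell with it. Of 20 other glutathione genes 9 fell and 1 rose, led by GPX3 (−0.64 ± 0.08, edgeR adjusted p = 2.3e-07) and GSTM4 (−0.32 ± 0.06, adjusted p = 2.48e-05), and MGST3 rose (0.34 ± 0.08, adjusted p = 0.000667).

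The export transporters ABCC3, ABCC1 and ABCC5 fell, 3 of 5 tested, and ABCC3 by most, from 74.4 ± 5.71 to 22.2 ± 3.45 CPM (−1.74 ± 0.10, edgeR adjusted p = 7.07e-13). Among 8 NADPH-producing enzymes 3 fell, TKT and TALDO1 of the pentose phosphate pathway among them, and 2 rose, MTHFD2 and IDH2 of mitochondria (0.25 ± 0.05 and 0.19 ± 0.05). Of 11 heme and iron genes 3 fell and 1 rose, with FTL, ferritin light chain, at −0.52 ± 0.06 (edgeR adjusted p = 4.81e-08). Of 15 other thioredoxin and peroxiredoxin genes 3 rose, SESN2, PRDX4 and PRDX5, and 0 fell. Of 7 other antioxidant enzymes 1 fell, SOD2, and of the 4 aryl hydrocarbon receptor targets 1 rose, TIPARP. Of the other stress genes 10 of 14 rose and 0 fell, with ASNS (0.94 ± 0.06), MT1X (1.07 ± 0.11), ATF3 (0.78 ± 0.08) and MT1E (0.83 ± 0.11) leading by adjusted p. Of the 56 calls in these lists over time in the control, 14 did not pass when 1 vial was left out, 9 of them without the first vial, 10 without the second, 4 without the third and 3 without the fourth (highest edgeR adjusted p 0.0592 to 0.299). They were SQSTM1, BACH1, SESN2, PRDX4, PRDX5, SOD2, GPX1, GSTM1, GSTM3, MGST1, ALDH3A1, CBR3, BLVRA and HMOX2.

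Levels of the genes other than TXNRD1 were correlated from library to library. Over the 32 libraries, the 28 pairs without TXNRD1 had Pearson correlations of log2(CPM + 1) between 0.56 and 0.95, with a median of 0.82. SRXN1 and OSGIN1 were the closest pair (0.95), followed by GCLM and SRXN1 (0.93). The 8 pairs with TXNRD1 lay between −0.44 and −0.13. The libraries share vials and 2 times, and the shift between times enters these values. With each group's mean taken out, the 28 pairs lay between −0.09 and 0.75 with a median of 0.40. The pairs with TXNRD1 then lay between −0.05 and 0.40. Among the 28, those of HMOX1 were the lower ones, from −0.09 with OSGIN1 to 0.33 with TXN.

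By the same measure, among all genes tested over the 32 libraries, the 3 genes most like each included another of the 9 for 4 of them, GCLM, SRXN1, OSGIN1 and PRDX1. Those most like GCLM were SRXN1 (0.931), OSGIN1 (0.896) and FAXC (0.895), those most like SRXN1 were OSGIN1 (0.952), CDH2 (0.952) and ICMT (0.946), and those most like OSGIN1 were BMP2 (0.952), SRXN1 (0.952) and VIPR1 (0.950). NQO1 was nearest to FTL (0.953), CBR1, a carbonyl reductase (0.947), and RAB5IF (0.938), and PRDX1 to SSR3 (0.927), C12orf75 (0.910) and NQO1 (0.910). HMOX1 was nearest to SQSTM1 (0.879), CST3 (0.877) and IGFBP7 (0.870), GCLC to LURAP1L (0.910), DDAH1 (0.908) and ITGB3 (0.905), and TXN to TMSB4X (0.898), JKAMP (0.896) and DYNLT1 (0.860). The genes nearest to TXNRD1 were KCTD3 (0.811), GJA1 (0.809) and NFYB (0.801).

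**Figure D4:**
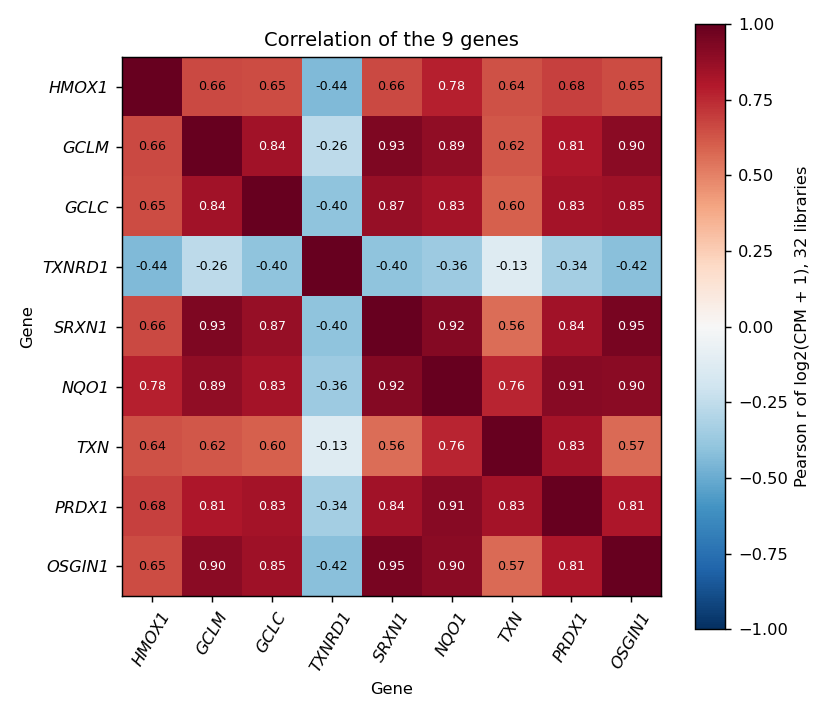
Pearson correlation of log2(CPM + 1) between each pair of the 9 genes over the 32 libraries, red for positive and blue for negative, with the value in each cell. The row and column of TXNRD1 are negative throughout, and the other cells lie between 0.56 and 0.95.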

How the data were processed

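Stranded poly(A) RNA libraries were sequenced on a DNBSEQ platform, and per the labels reads were processed with HISAT2 2.0.4, Bowtie2 2.2.5 and RSEM 1.2.8 on GRCh38.p14. The authors deposited expected counts per gene, not normalized, and TPM values. Of 48 pairs of replicates 0 were identical, and each differed beyond sampling noise (chi-square per degree of freedom of 2.3 to 16.2). Groups and the numbers of the biological replicates came from the sample labels, and 0 columns were left unmapped. The expected counts were rounded and tested with edgeR 4.0.16 (TMM normalization, its filter on low counts, robust quasi-likelihood test, Benjamini-Hochberg adjustment over all genes tested) in R 4.3.3, within a time over 16 libraries and between times over 32. The fit was first tested on simulated data. For 0.1 µM PFOS it recovered 73.4% of 1.25-fold changes at 6 weeks and 45% at 12 weeks, so changes of this size can be missed. The SE is the log2 fold change divided by the root of F. CPM used TMM factors of all 32 libraries.

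Members and lists were chosen with earlier results of these data known. Named were the 9 genes, 6 regulators, list genes that passed against control, up to 4 per list for time, and 3 genes most alike each member.

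Libraries of the same replicate number were taken as the same vial, since the study's methods divide each vial over the treatments. The sample titles do not name the vial. The deviations of same-numbered libraries from their group means correlated at 0.055 to 0.124 (mean per pair of groups, 6 pairs) after 6 weeks and at −0.161 to 0.154 after 12 weeks. These correlations are low at both times, so all blocked values are uncertain, and those at 12 weeks more so. Alternatives were RLE factors, DESeq2 1.42.0, other filters, the vial block, leaving out vials or the third 12-week control library, fits of 8 or 32 libraries and other scales for the exact test. The values of 1 list gene are not reported here.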

Additional observations from a re-analysis of the deposited data

Results flagged for a closer look

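Among the 72 sets of 4 libraries (9 genes in 8 groups), 2 had a library far from the other 3 by Dixon's criterion, which flags about 1 group in 20 by chance. TXNRD1 was at 2083 CPM in vial 2 of the 12-week control, against 1818 to 1841 CPM in the other vials. SRXN1 was at 115 CPM in vial 1 of 0.01 µM PFOS at 6 weeks, against 84.2 to 88.6 CPM in the others.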

How the results depend on the processing

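For 0.1 µM PFOS at 6 weeks, 2 of the 9 genes passed, and 4 passed with DESeq2, 1 without the filter, 6 with the vial as a block, 4 in a fit of the 8 libraries alone and 0 in the fit of all 32 libraries, and 0 to 2 with a vial left out. Of all genes, 544 passed in this comparison, 624 with DESeq2 and 739 with the block. The cause of these differences was not tested. At 0.1 µM and 12 weeks 0 passed, and 2 with DESeq2, 2 in the fit of all 32 libraries and 0 to 2 without a vial. Of all genes, 136 passed there, and 282 with DESeq2. From 0.01 to 0.1 µM at 12 weeks 0 passed, and 1 with DESeq2, 1 in the fit of all 32 libraries and 0 to 1 without a vial. Of all genes, 0 passed at this step, and 145 with DESeq2. The other 14 counts stayed within 1.5 times under every alternative, including the fits with the vial block and those without the third 12-week control library, whose liver transcript count was 919.

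Signs in the comparisons with the control and between the times turned only in values that did not pass. For GCLM at 0.01 µM and 12 weeks the log2 fold change was 0.002 with RLE factors, 0.002 with DESeq2, 0.003 with all 32 libraries and −0.055 to 0.038 without a vial. Without a vial at 12 weeks, values turned for TXN (−0.018 to 0.067), PRDX1 (−0.043 to 0.078) and OSGIN1 (−0.174 to 0.050) at 0.01 µM, SRXN1 at 0.1 µM (−0.156 to 0.013), and HMOX1 (−0.155 to 0.015), TXNRD1 (−0.087 to 0.009) and OSGIN1 (−0.124 to 0.022) at 1 µM. From 6 to 12 weeks they turned for TXN at 0.01 µM (−0.167 to 0.118) and TXNRD1 at 1 µM (−0.057 to 0.023). Of the 36 values of the 9 genes between neighbouring concentrations 13 changed sign under at least 1 alternative, and of the 27 differences of effects 6. None of these values passed in edgeR. The counts of a gene were at least 153 in a library, and counting error (from the mean count of a group) was 0.524% to 7.4%. The spread between vials was larger than it in 65 of the 72 gene and group pairs; the exceptions were in HMOX1, GCLM and GCLC.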
